A study of Homo sapiens with 6 samples.

Results

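The 8 genes described here encode 4 RAS GTPases (NRAS, HRAS, RRAS and RRAS2), 2 RAF kinases (ARAF and BRAF) and 2 RAS GTPase-activating proteins (NF1 and RASA1). They were taken by gene symbol from the 58735 rows of a gene count table of RD cells, and each symbol matched 1 row. RD is an established cell line of embryonal rhabdomyosarcoma (ERMS), a tumor with features of developing skeletal muscle. The cells were transduced with lentiviral particles carrying either scrambled shRNA (control, n = 3) or shRNA against TAK1 (TAK1 knockdown, n = 3), and polyadenylated RNA was sequenced. A single TAK1 shRNA construct was sequenced, so that loss of TAK1 and other effects of that construct cannot be told apart. The labels number the samples of a group from 1 to 3 without saying what separates them, so that p-values measure the spread between these samples only.

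RAS proteins are membrane-bound switches that are active with GTP and inactive with GDP. Exchange factors such as SOS1 load them with GTP, and GTPase-activating proteins such as neurofibromin, the product of NF1, return them to the inactive state. Active RAS recruits RAF kinases, which phosphorylate the MEK kinases and through them ERK. Genes of this pathway are recurrently mutated in ERMS, and RD is known to carry an oncogenic allele of NRAS. The counts do not separate alleles, and they measure transcripts and not the GTP-bound state of the proteins.

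Total counts ran from 28839898 to 34469323 per sample, and 15935 genes passed the filter on low counts, all 8 RAS and RAF genes among them. Levels are given as CPM, counts scaled to a fixed library size, after normalization by the trimmed mean of M-values (TMM), and differences as log2 fold changes of TAK1 knockdown against control. A gene was called when the quasi-likelihood test of edgeR gave a p under 0.05 after Benjamini-Hochberg adjustment over all tested genes and the absolute log2 fold change was at least 0.25. MAP3K7, which encodes TAK1, measured 77.9, 76.5 and 77.6 CPM in the control samples and 30.5, 33.6 and 29.9 CPM in the TAK1 knockdown samples, a log2 fold change of -1.30 (SE 0.062, adjusted p = 4.45e-14). Of 7 skeletal muscle lineage genes, 6 were tested, and their list summed to between 1885 and 1916 CPM in control and between 1803 and 1916 CPM in TAK1 knockdown samples. Within this list MYMK, MYOD1 and MYOG, which encode a fusion factor and myogenic transcription factors, rose by 0.98, 0.37 and 0.27 on the log2 scale. CHRNA1, an acetylcholine receptor subunit, fell from 921 to 700.3 CPM (log2 fold change -0.40). DES was not called (log2 fold change 0.089, adjusted p = 0.119). CDH15 missed only the fold threshold (log2 fold change 0.232, adjusted p = 0.00116). The part of these muscle genes in the RAS and RAF results was not tested. All 5 epithelial and all 5 leukocyte markers stayed under 1 CPM in every sample, as did 4 of 5 endothelial markers, whose list summed to between 2.98 and 3.65 CPM in control and between 1.78 and 2.75 CPM in TAK1 knockdown samples. In RNA from a whole culture, fewer cells expressing a gene and less RNA per cell cannot be told apart.

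Of the 8 genes, NRAS fell, RRAS2 and BRAF rose, and HRAS, RRAS, ARAF, NF1 and RASA1 did not pass the test. Among all tested genes, 11.8% were called higher and 11.3% lower, so that about 1 call in each direction is the background for 8 genes, against 2 higher and 1 lower here. The control and TAK1 knockdown samples did not overlap for 3 genes that were higher (RRAS2, BRAF and NF1) and 1 that was lower (NRAS). That holds for 21.6% of all tested genes in the higher and for 22.2% in the lower direction. The median log2 fold change of the 8 genes was -0.07, against 0.018 for all tested genes.

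**Figure D1:**
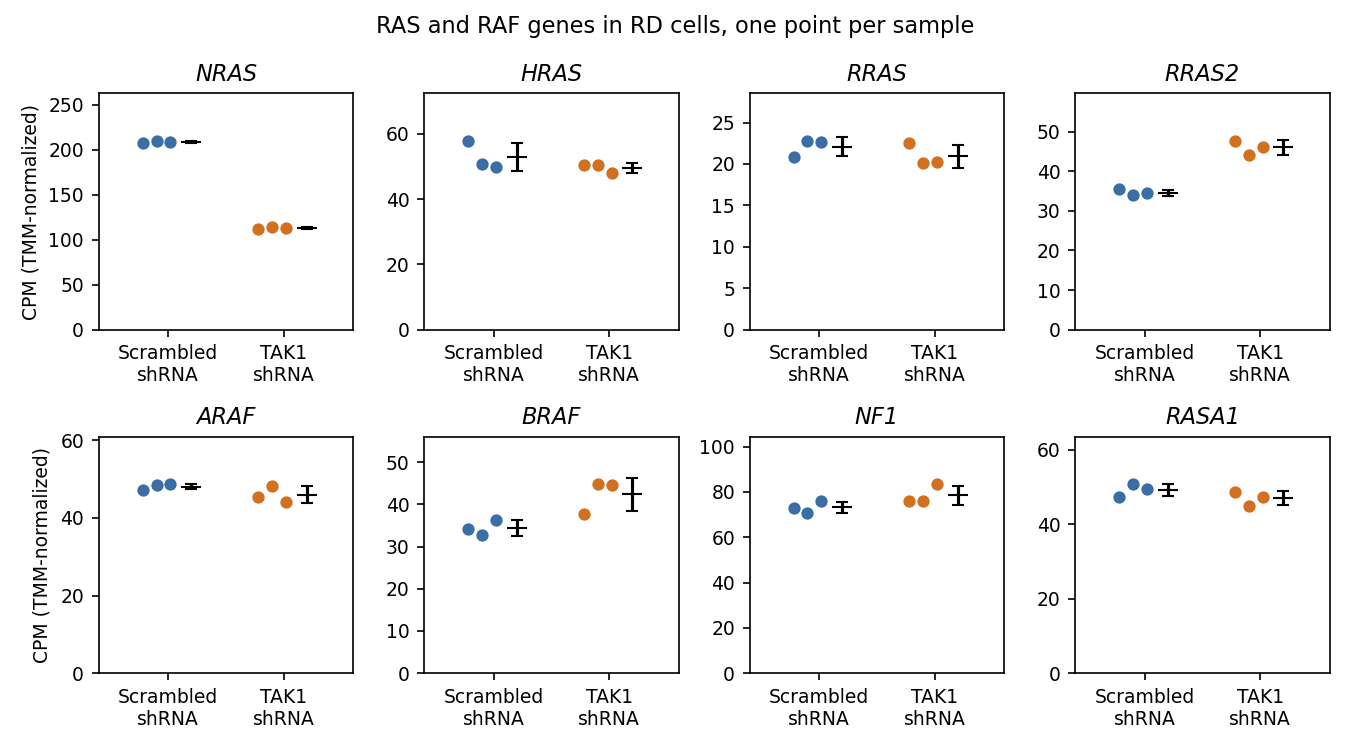
TMM-normalized CPM (linear axes from 0) of each of the 8 RAS and RAF genes in 3 scrambled shRNA (blue) and 3 TAK1 shRNA (orange) samples of RD cells, with the mean and SD of each group as black bars. NRAS stands apart with 208 to 210.0 CPM in control and 112 to 114 CPM in TAK1 knockdown samples, RRAS2, BRAF and NF1 are higher without overlap, and the groups overlap for the other 4 genes.

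NRAS (ENSG00000213281.5) encodes a RAS GTPase that cycles between the plasma membrane and the Golgi, and it was the member with the highest read count. The gene is encoded on chromosome 1 (GRCh38, minus strand, 114704469 to 114716771), and its canonical transcript has 7 exons and 4326 bases. The 141 bases before its start, which no annotated exon covers, are printed because NRAS had the largest change among the 8 genes. They were read 5′ to 3′ on the minus strand at chr1:114716772-114716912 (RefSeq promoter table, GRCh38.p14), and the capitals mark the GC box letters GGGCGG.
NRAS upstream stretch: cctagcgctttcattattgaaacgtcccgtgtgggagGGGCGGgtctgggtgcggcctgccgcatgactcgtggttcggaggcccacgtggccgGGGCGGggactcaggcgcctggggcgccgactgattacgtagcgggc

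The NRAS transcript fell to 54.2% of its control level. It was read 5906, 6613 and 6435 times in the control samples and 3272, 4038 and 3732 times in the TAK1 knockdown samples. In CPM these values were 208, 210.0 and 209 in control and 112, 114 and 113 in TAK1 knockdown samples. The samples of each group lay close together and the groups were far apart. The control mean was 209 ± 1.14 CPM (SD, n = 3) and the TAK1 knockdown mean 113 ± 1.21 CPM (SD, n = 3). This gave a log2 fold change of -0.88 (SE 0.046, 95% interval -0.98 to -0.79, adjusted p = 1.78e-13). Of the 15935 tested genes, 255 (1.60%) had a lower log2 fold change.

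RRAS2 (ENSG00000133818.14) encodes TC21, a GTPase of the R-RAS branch that also binds RAF and PI3-kinase. It is encoded on chromosome 11 (minus strand, 14277922 to 14364506), and its canonical transcript has 2343 bases. The RefSeq table gives 4 promoter windows for RRAS2. The 250 bases before the start of the canonical transcript are printed for comparison with NRAS, since RRAS2 moved in the opposite direction. They were read on the minus strand at chr11:14359184-14359433 (GRCh38.p14), with GC boxes, here in the reverse orientation CCGCCC, in capitals.
RRAS2 upstream stretch: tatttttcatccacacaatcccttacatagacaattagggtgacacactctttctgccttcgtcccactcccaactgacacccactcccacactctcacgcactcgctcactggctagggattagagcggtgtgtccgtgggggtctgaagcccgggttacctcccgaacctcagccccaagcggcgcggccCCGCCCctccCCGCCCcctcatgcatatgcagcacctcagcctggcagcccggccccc

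RRAS2 rose 1.33-fold. Its levels were 35.5, 33.9 and 34.4 CPM in the control samples and 47.7, 44.1 and 46.2 CPM in the TAK1 knockdown samples. Every knockdown sample was above every control sample. Its mean of 34.6 ± 0.787 in control and 46.0 ± 1.82 CPM in TAK1 knockdown samples (SD, n = 3 each) gave a log2 fold change of 0.41 (SE 0.064, 95% interval 0.28 to 0.54, adjusted p = 1.65e-05).

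Each of the printed stretches holds 2 GC boxes and no match to the ETS core CCGGAAGT, the AP-1 site TGANTCA or the cAMP response element TGACGTCA, searched on both strands. In promoter windows of 250 bases before to 50 bases after a start, 7 of the 8 genes had an entry, and RRAS had none. Over all 35116 such windows, 45.0% held a GC box, 4.14% the ETS core, 7.71% the AP-1 site and 1.85% the cAMP response element. The NRAS window held 1 ETS core and 3 GC boxes, the NF1 window 1 ETS core and 1 cAMP response element, and the HRAS window 5 GC boxes. The windows of BRAF and ARAF held no match to any of the 4 motifs, and no window of the matched genes held the AP-1 site. These matches describe letters and were not tested for binding.

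HRAS and RRAS, the other GTPases, did not pass the test. HRAS (ENSG00000174775.18, chromosome 11, 532242 to 537321, minus strand) encodes a RAS protein anchored in the plasma membrane by farnesyl and palmitoyl groups. It measured 57.9, 50.8 and 50.0 CPM in control and 50.6, 50.4 and 47.9 CPM in TAK1 knockdown samples. The groups overlap, and control sample 1 was above the other 5 samples. The log2 fold change of HRAS was -0.091 (95% interval -0.22 to 0.042, adjusted p = 0.304). RRAS (ENSG00000126458.4, chromosome 19, 49635292 to 49640143, minus strand) encodes R-RAS, known for its part in integrin-mediated adhesion. Its levels were 20.8, 22.8 and 22.7 CPM in control and 22.5, 20.1 and 20.2 CPM in TAK1 knockdown samples, which overlap. The log2 fold change of RRAS was -0.082 (95% interval -0.246 to 0.083, adjusted p = 0.477).

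The 4 GTPase genes together measured 318 ± 3.07 CPM in control and 229.6 ± 2.73 CPM in TAK1 knockdown samples (SD, n = 3 each). NRAS made up 64.5%, 66.1% and 66.1% of this sum in the control samples and 48.1%, 49.9% and 49.7% in the TAK1 knockdown samples. RRAS2 made up 11.0%, 10.7% and 10.9% in control and 20.5%, 19.2% and 20.3% in TAK1 knockdown samples. Thus NRAS gave most of the GTPase reads in control samples and fewer than the other 3 genes together in TAK1 knockdown samples. Shares of a sum depend on each other, and those of HRAS (16.6% to 21.6% in the mean) and RRAS (6.95% to 9.11%) were also higher.

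Read counts grow with transcript length, so levels were compared between genes as CPM per kilobase of the canonical transcript. On this scale HRAS (49.4 ± 4.03) and NRAS (48.3 ± 0.263) did not differ beyond their spread in control samples. In TAK1 knockdown samples HRAS, at 46.4 ± 1.41 CPM per kilobase, was above NRAS, at 26.1 ± 0.280. The sum over the 4 GTPase genes was 135 ± 2.99 CPM per kilobase in control and 113 ± 2.66 in TAK1 knockdown samples, with NRAS at 35.8% and 23.1% of it. The order of HRAS and NRAS rests on the length used: with all annotated exons merged, HRAS measured 21.8 and 20.4 CPM per kilobase in control and TAK1 knockdown samples, below NRAS in both.

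**Figure D2:**
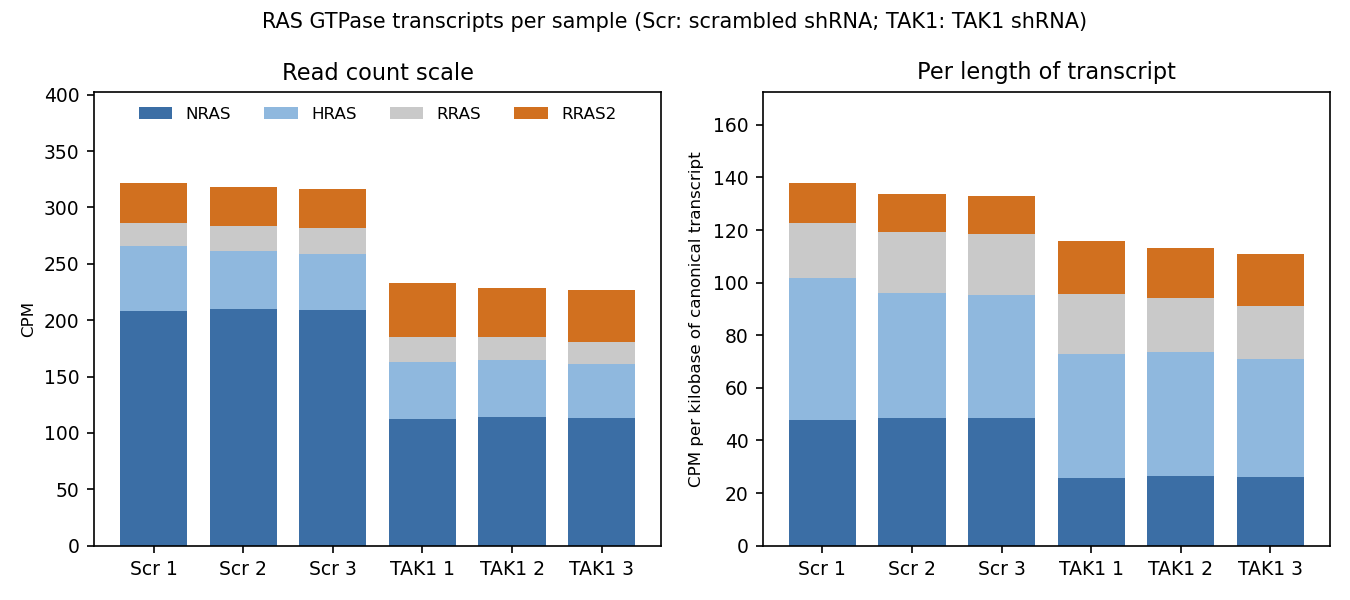
Stacked levels of NRAS, HRAS, RRAS and RRAS2 in each sample, as CPM (left) and as CPM per kilobase of the canonical transcript (right), both from 0; Scr stands for scrambled shRNA and TAK1 for TAK1 shRNA. The NRAS segment is shorter and the RRAS2 segment taller in all 3 TAK1 shRNA samples, and the total is lower on both scales.

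Of the RAF kinases, BRAF rose and ARAF did not pass the test. BRAF (ENSG00000157764.14), the family member with the highest basal kinase activity, has 18 exons in its canonical transcript (chromosome 7, 140719327 to 140924929, minus strand). It measured 34.1, 32.7 and 36.3 CPM in control and 37.8, 44.8 and 44.7 CPM in TAK1 knockdown samples. The groups did not overlap, but TAK1 knockdown sample 1 lay close to the highest control sample. Its mean of 34.4 ± 1.82 in control and 42.4 ± 3.98 CPM in TAK1 knockdown samples (SD, n = 3 each) gave a log2 fold change of 0.30 (SE 0.073, 95% interval 0.15 to 0.45, adjusted p = 0.00196). Exons of NDUFB2 on the opposite strand cover 5.29% of the exon bases of BRAF, and whether counting used strand is not given in the sources used here. NDUFB2 itself had a log2 fold change of 0.027 (95% interval -0.098 to 0.15).

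ARAF (ENSG00000078061.14) encodes a RAF kinase of low basal activity and is encoded on chromosome X (47561205 to 47571908, plus strand). Its levels were 47.3, 48.5 and 48.7 CPM in control and 45.3, 48.3 and 44.2 CPM in TAK1 knockdown samples, which overlap. The log2 fold change of ARAF was -0.067 (95% interval -0.19 to 0.059, adjusted p = 0.445). BRAF therefore made up 41.9%, 40.3% and 42.7% of the reads of both kinases in control and 45.5%, 48.1% and 50.2% in TAK1 knockdown samples. Per kilobase, ARAF stayed above BRAF, at 20.2 against 5.32 CPM in control and 19.3 against 6.57 CPM in TAK1 knockdown samples.

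Neither GTPase-activating protein passed the test. NF1 (ENSG00000196712.20) encodes neurofibromin, a tumor suppressor that inactivates RAS, and has 58 exons (chromosome 17, 31094927 to 31382116, plus strand). It measured 72.8, 70.9 and 75.8 CPM in control and 75.9, 76.2 and 83.4 CPM in TAK1 knockdown samples. The groups stood apart by 0.1 CPM or so, with TAK1 knockdown sample 3 the highest. The log2 fold change of NF1 was 0.10 (SE 0.056, 95% interval -0.014 to 0.22, adjusted p = 0.175). NF1 has annotated partial copies elsewhere in the genome, and 12 of them have a row of their own in the counts, with 1061 counts in all, or 7.41% of those on NF1. How reads shared with them were assigned is not given in the sources used here.

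RASA1 (ENSG00000145715.15) encodes p120 RasGAP, which is recruited to activated receptor tyrosine kinases, and is encoded on chromosome 5 (87267883 to 87391931, plus strand). Its levels were 47.3, 50.7 and 49.3 CPM in control and 48.6, 44.9 and 47.4 CPM in TAK1 knockdown samples, which overlap. The log2 fold change of RASA1 was -0.065 (95% interval -0.19 to 0.061, adjusted p = 0.455). Exons of CCNH on the opposite strand cover 14.7% of the exon bases of RASA1, and CCNH had a log2 fold change of -0.046 (95% interval -0.21 to 0.12). The 95% intervals of the 5 genes without a call lay between -0.246 and 0.22 on the log2 scale, inside the fold threshold in both directions.

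**Figure D3:**
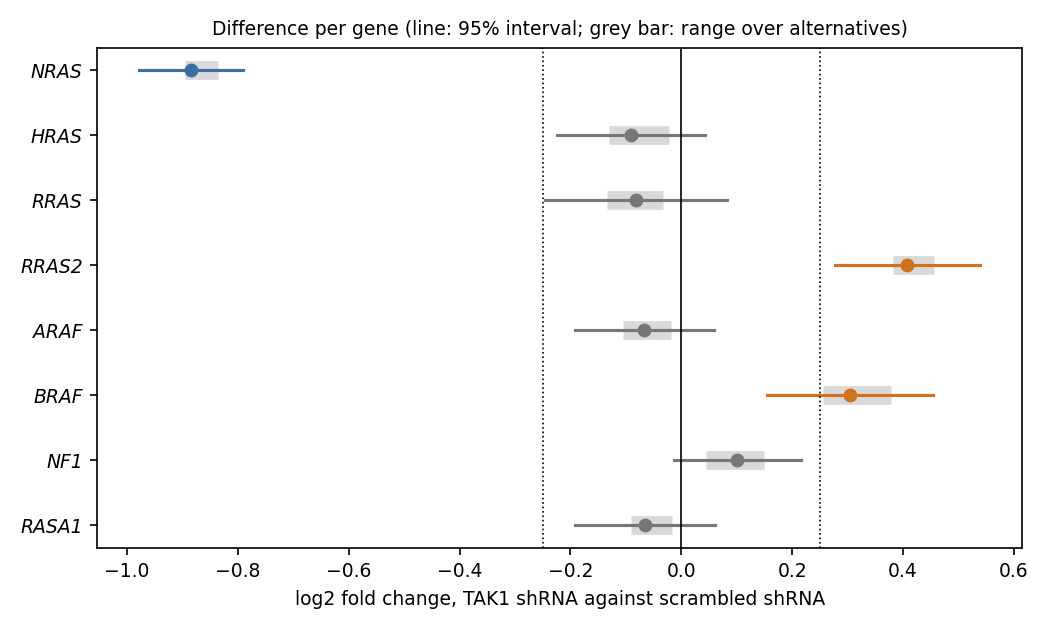
Log2 fold change of TAK1 shRNA against scrambled shRNA for the 8 genes, with the 95% interval of the edgeR fit as a line and the range over 14 alternative fits as a grey bar. Dotted lines stand at the fold threshold of 0.25 in both directions; NRAS lies at -0.88, RRAS2 at 0.41 and BRAF at 0.30, and the other 5 intervals lie between the dotted lines.

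Within each sample, the levels of paired family members were set against each other, which removes the scaling between libraries. The ratio of NRAS to HRAS in CPM went from 3.96 in control to 2.28 in TAK1 knockdown samples, a log2 difference of -0.80. The ratio of RRAS2 to RRAS was 1.57 and 2.20, a log2 difference of 0.49, and that of BRAF to ARAF was 0.714 and 0.921, a log2 difference of 0.37. The ratio of NF1 to RASA1 was 1.49 and 1.67, a log2 difference of 0.16. In all 4 pairs the control and TAK1 knockdown samples did not overlap. Of single tested genes, 21.6% did not overlap in the higher and 22.2% in the lower direction. The share among other pairs of genes was not computed, and NRAS, RRAS2 and BRAF had been called on their own. A two-sided exact permutation test gave p = 0.1 for each pair (adjusted p = 0.1 over 4 pairs), the smallest that 3 against 3 samples allow.

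The genes whose levels followed NRAS most closely over the 6 samples were EMB, DUSP6 and TLL2, each with a Pearson r of 0.9994 of log2 CPM among 13476 genes whose mean reached 1 CPM. EMB encodes the cell adhesion glycoprotein embigin, DUSP6 a phosphatase that inactivates ERK, and TLL2 a metalloprotease of the tolloid family. EMB measured 168, 171 and 173 CPM in control and 91.3, 95.5 and 93.8 CPM in TAK1 knockdown samples. For RRAS2 they were TPPP3 (r = 0.9995), CYB561 (0.9989) and EIF4EBP2 (0.9987). These values describe a difference between groups of 3 shared by many genes: 276 genes had an r above 0.99 with NRAS and 92 with RRAS2.

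The genes around RAS and RAF were read from 7 lists with 137 genes, of which 124 were tested. Of these, 12 were called higher (9.68%) and 26 lower (21.0%), and their median log2 fold change was -0.081. Over all tested genes 11.8% were called higher and 11.3% lower, with a median of 0.018, and 7565 of the 15935 genes had a log2 fold change below 0. These shares over all tested genes are also the background for the counts of each list below. The lists are described by counts, and no list was tested as a set.

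The list of exchange factors and adaptors holds genes that act before RAS or before RAS-related RAP GTPases. Of its 21 tested genes, 3 rose and 2 fell (median log2 fold change 0.010). SOS1, the main exchange factor below receptor tyrosine kinases, rose from 77.7, 77.4 and 78.5 to 88.2, 88.8 and 101 CPM (log2 fold change 0.25, adjusted p = 0.00110), just past the fold threshold. Its call was lost in 7 of 14 alternative fits, among them those without control sample 2 and without TAK1 knockdown sample 3. RAPGEF2 and RAPGEF1, exchange factors of the RAS-related RAP GTPases, rose by 0.56 and 0.41 on the log2 scale. PTPN11, which encodes the phosphatase SHP2 that RAS activation requires, fell from 163, 166 and 167 to 118, 113 and 125 CPM (log2 fold change -0.48, adjusted p = 3.25e-08). RASGRF1 had a log2 fold change of -1.57 but was under 1 CPM in every sample, and its call was lost in 5 of 14 alternative fits, among them those without control sample 1 or 2 and without TAK1 knockdown sample 2. Among the other GTPase-activating proteins, 2 of 10 tested genes rose and 1 fell (median 0.16). RASAL2 rose by 0.45 on the log2 scale, and RASA2 had a log2 fold change of -0.66, from 26.8 ± 1.37 to 16.9 ± 1.64 CPM.

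Among other GTPases of the RAS subfamily, 4 of 21 tested genes rose and 4 fell (median log2 fold change -0.18). RAP2B and RAP2C fell, with log2 fold changes of -0.75 and -0.52, as did RALA (-0.33), which RAS activates through RALGDS. RASL11B, DIRAS1 and RASL10B rose by 0.84, 0.43 and 0.40 on the log2 scale. The call of DIRAS1 was lost in 6 of 14 alternative fits, among them those without any 1 of the control samples and without TAK1 knockdown sample 3. Among the enzymes that attach or remove lipids and carry RAS to membranes, none of 17 tested genes rose and 2 fell (median -0.012). LYPLA1, a thioesterase that removes palmitate from proteins including RAS, fell from 91.8, 97.4 and 97.1 to 50.4, 60.2 and 58.2 CPM (log2 fold change -0.76, adjusted p = 5.05e-10). PGGT1B, a subunit of a geranylgeranyl transferase, had a log2 fold change of -0.27, and its call was lost in 5 of 14 alternative fits, among them those without control sample 1 or 2 and without TAK1 knockdown sample 2.

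Downstream of RAF, 1 of 25 tested kinases and scaffolds rose and 5 fell (median log2 fold change -0.11). MAP2K1, which encodes MEK1, fell from 722, 733 and 730.3 to 366, 362 and 352 CPM (log2 fold change -1.02, SE 0.041, adjusted p = 1.94e-15). The groups were far apart for MAP2K1, whereas MAP2K2, the gene of MEK2, gave 246 ± 15.9 and 263 ± 8.64 CPM and did not pass the test (log2 fold change 0.095, adjusted p = 0.148). MAP2K2 was chosen after its values were seen, as the partner of MAP2K1. YWHAH, an adaptor that binds phosphorylated RAF, and the scaffold IQGAP1 fell, with log2 fold changes of -0.52 and -0.40, and the scaffold CNKSR3 rose by 0.31 on the log2 scale.

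Among other effectors of RAS, 2 of 17 tested genes rose and 3 fell (median log2 fold change 0.015). PIK3CA, a catalytic subunit of PI3-kinase, rose by 0.27 on the log2 scale and its relative PIK3CB had a log2 fold change of -0.32. RALGDS, an exchange factor for RAL, rose by 0.30 on the log2 scale, and its relative RGL1 had a log2 fold change of -0.49. RIN1, a RAB exchange factor that binds HRAS, had a log2 fold change of -0.35. Of these 5 genes, RGL1 alone held its call in all 14 alternative fits. Calls were lost without control sample 3 (PIK3CA, PIK3CB and RALGDS), without control sample 1 (PIK3CB), and without TAK1 knockdown sample 1 (RALGDS), 2 (PIK3CA and RIN1) or 3 (PIK3CA).

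Among genes known as transcriptional targets of ERK, none of 13 tested genes rose and 9 fell (69.2%). All 13 had a log2 fold change below 0 (median -0.52). Over all tested genes, 11.8% were called higher and 11.3% lower, and 7565 of 15935 had a log2 fold change below 0. EGR1, an immediate early transcription factor, fell from 71.1, 68.9 and 71.8 to 30.3, 25.3 and 29.3 CPM (log2 fold change -1.32). DUSP6 fell from 552, 551 and 539 to 263, 262 and 259 CPM (log2 fold change -1.07), and SPRY4, a feedback inhibitor of the pathway, had a log2 fold change of -0.95. DUSP4, PHLDA1, SPRED1 and IER3 had log2 fold changes from -0.12 to -0.11 without a call, and ETV5 (-0.25) lost its call in 6 of 14 alternative fits, among them those without control sample 1 or 3 and without TAK1 knockdown sample 1. EGR1 and CCND1 are among the genes that the study chose to display from these samples. The whole list was chosen with earlier results of these data known. Its genes, EGR1 and CCND1 included, are therefore not independent evidence of the direction of this list. The counts do not measure ERK activity, and its part in these values was not tested. By western blot, the study reported significantly lower JNK and p38 phosphorylation after TAK1 knockdown in RD cells. ERK phosphorylation was also measured in RD cells, and the study did not list it among the significant decreases there. In a different cell line, the study reported significantly lower ERK and JNK phosphorylation.

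**Figure D4:**
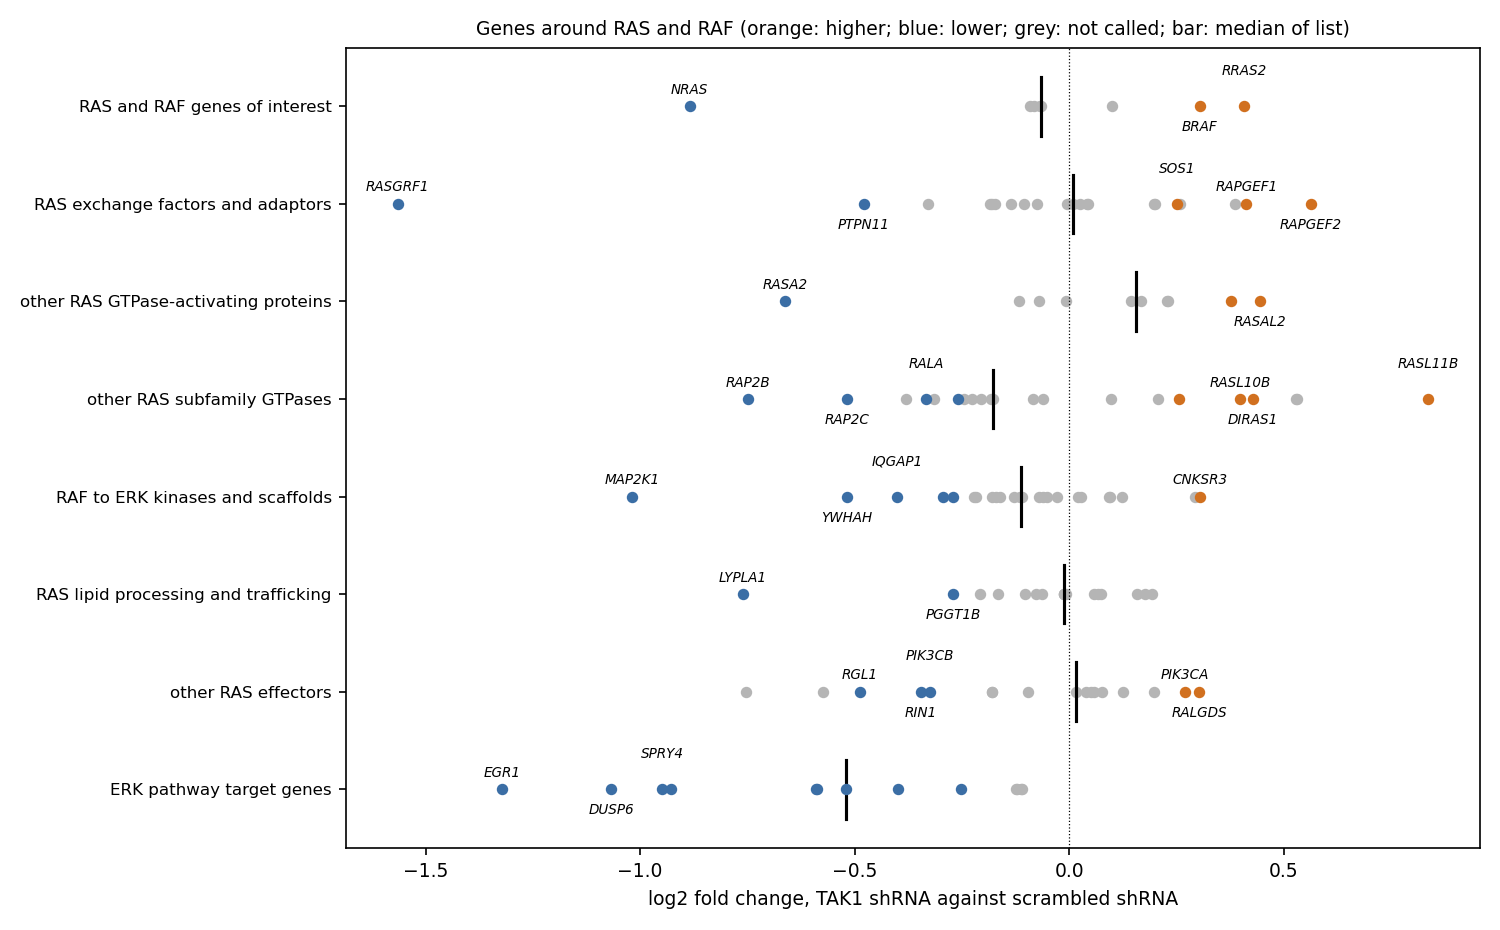
Log2 fold change of each tested gene in the 8-gene set (top row) and in 7 lists of genes around RAS and RAF, with genes called higher in orange, called lower in blue and not called in grey, and the median of each list as a bar. The target genes of ERK all lie left of 0 with a median of -0.52, whereas the other list medians lie between -0.18 and 0.16.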

How the data were processed

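Poly(A) RNA-seq was performed on RD cells with scrambled shRNA (n = 3) or TAK1 shRNA (n = 3). Per the labels, the deposited values are raw counts of reads per gene from CASAVA base calling and STAR alignment to GRCh38. The counter, the annotation release, the use of strand and the handling of reads with several matches are not given in the sources used here. Groups came from the sample titles and treatments.

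Counts were filtered with edgeR's default (minimum count 10, 15935 genes kept, holding at least 99.90% of the counts), normalized by TMM and compared with the quasi-likelihood test of edgeR 4.0.16 in R 4.3.3, without a replicate term. Standard errors were derived from the F statistic of each log2 fold change, and intervals are 95% intervals from the same fit. Total counts ran from 28839898 to 34469323, and the common biological coefficient of variation was 5.67%. The replicates of each group differed by more than sampling noise (chi-square per degree of freedom 2.87 to 8.67), and the first principal component (45.5% of the variance) separated the groups. Alternatives were DESeq2 1.42.0, voom (limma 3.58.1), other normalizations, filters and fold thresholds, a replicate block, and fits with 1 sample left out.

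Coordinates, exon overlaps and transcript lengths came from GENCODE 44 (GRCh38), which may differ from the annotation the authors used. Named genes are the 8 members, MAP3K7, in each list the called genes with the largest change (at most 3 in each direction), and the 3 genes most correlated with the 2 called members of largest change. Outside this rule, genes that overlap a member (NDUFB2, CCNH), partners or list members without a place in the rule (MAP2K2, CCND1, DUSP4, PHLDA1, SPRED1, IER3, ETV5, RHEB, NKIRAS2) and muscle markers were named after their values were seen. Some genes that this rule names are not reported here. The members, the lists and the tests were chosen with earlier results of these data known.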

Additional observations from a re-analysis of the deposited data

How the results depend on the processing

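The calls of all 8 RAS and RAF genes held in each of 14 alternative fits, with log2 fold changes from -0.90 to -0.84 for NRAS, 0.38 to 0.46 for RRAS2 and 0.26 to 0.38 for BRAF (highest adjusted p for BRAF 0.0232). BRAF thus stayed close to the fold threshold. With the fold threshold at 0.5 instead of 0.25, 0 of 8 genes were called higher and 1 lower (NRAS), and the pathway genes gave 2 higher and 14 lower calls. Over fits that left out 1 sample, pathway genes gave 9 to 11 higher and 23 to 30 lower calls. Scaling by library size alone moved the median log2 fold change of all tested genes from 0.018 to 0.066 and the share of calls that were higher from 51.0% (1879 higher and 1805 lower) to 62.9% (2376 higher and 1404 lower). Under that scaling NF1 had an adjusted p of 0.0370 at a log2 fold change of 0.15, under the fold threshold. Control and TAK1 knockdown samples of the same number had correlations of deviations of 0.037, 0.0364 and 0.0165. Those of different numbers ran from -0.0524 to 0.019. Values this small do not settle whether the numbers pair the samples. A fit with a replicate block gave 2 higher and 1 lower of the 8 genes. Among pathway genes it gave 11 higher (SOS1 not among them) and 26 lower calls. The alternatives on all tested genes were chosen after the data were seen. RHEB and NKIRAS2, counted in the RAS subfamily, lost their calls in 4 and 5 of the 14 fits. Depth limits RASGRF1 and other genes under 1 CPM, not the 8 members, each with at least 591 counts in every sample.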
